A study of Mus musculus with 12 samples.

Results

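Macrophage co-culture without added iron was studied by comparing 3 arrays of BNL CL.2 cells kept beside RAW 264.7 macrophages with 3 arrays of BNL CL.2 cells kept without them. These 6 arrays were taken from the 12 of the series by their titles. All 18194 genes with a probe set naming 1 gene were compared, each through 1 probe set. BNL CL.2 is a mouse liver cell line and RAW 264.7 is a mouse macrophage line. In the group called alone, a culture insert held further BNL CL.2 cells, and in the group called RAW the insert held RAW 264.7 cells. The other 6 arrays repeated both arrangements with ferric ammonium citrate, an iron salt, at 100 micromolar, and formed the groups FAC (without macrophages) and RAW_FAC (with them). Each of the 4 groups had 3 arrays, and all cells were grown in DMEM with serum and cultured for 24 h. Array titles carry replicate numbers 1 to 3, and an array of each of 2 groups with the same number is called a same-number pair. The labels do not state whether replicates came from separate cultures, and each p-value is therefore a statement about the variation among these arrays.

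Interferons are secreted proteins that signal to neighbouring cells. Type I interferons bind a receptor made of IFNAR1 and IFNAR2, whose kinases phosphorylate STAT proteins; with IRF9 these form a complex that binds the interferon-stimulated response element (ISRE) in gene promoters. Type II interferon acts through IFNGR1 and IFNGR2 and the gamma-activated sequence (GAS). The genes switched on in this way include sensors of viral RNA, antiviral effectors, GTPases that attack intracellular pathogens and the antigen presentation machinery, and macrophages are a well-known source of interferons and other cytokines.

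Values are log2 signals, which ran from 2.42 to 14.6, with array medians of 5.63 to 5.68. The hepatocyte genes Alb (albumin) and Ttr (transthyretin) had mean signals of 5.19 and 6.50 in alone, while Afp (alpha-fetoprotein) had 8.76, Apob (apolipoprotein B) 11.77 and the hepatocyte transcription factor gene Hnf4a 10.56. The epithelial genes Krt19 and Cdh1 had 13.44 and 12.73. A low log2 signal cannot be told from background here. Over the macrophage marker list, 25 of 25 genes were measured, and the mean log2 signal of the list was 5.25 to 5.29 in the alone arrays and 5.27 to 5.38 in the RAW arrays (two-sided exact permutation p = 0.2, where 0.1 is the smallest p that 3 arrays against 3 allow). Among the defining macrophage genes, the RAW minus alone difference was 0.24 for Lyz2, 0.10 for Csf1r, 0.03 for Cd68 and -0.05 for Adgre1. Whether RNA of the macrophages entered the samples was not tested beyond these values. The signal of control probe sets at the 3′ end less that at the 5′ end, a measure of RNA integrity, differed between RAW and alone by -0.02 for Gapdh and 0.01 for beta-actin (exact permutation p = 0.7 and 0.9). In bulk samples such as these, fewer cells of a type and less RNA per cell cannot be told apart.

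With macrophages and no added iron, the largest differences were mostly higher signals of genes known to respond to interferon. Xaf1 and Rtp4 were 5.02-fold and 4.51-fold higher in RAW than in alone, and Usp18, Irf9, Mndal and Mycn were between 2.12-fold and 2.54-fold higher. Mycn belonged to none of the gene lists used here. In all, 22 genes were at least 1.5-fold higher (0.121% of the genes tested) and 0 were at least 1.5-fold lower (0%). Of these 22 genes, 17 belonged to a gene list used here, 15 of them to lists of interferon receptors, signalling, sensors, effectors and interferon-inducible families. These 7 lists held 102 of the 18194 genes tested. The lists were chosen with earlier results of these data known, so the 15 are not independent evidence. None of the differences passed the test over all genes. In limma, 0 of 18194 genes (0%) had a Benjamini-Hochberg adjusted p under 0.05 without a replicate block, and 0 (0%) with replicate number as a block. The smallest adjusted p was 0.479 without the block, for Trim21 and Irf9, and 0.193 with it, for Trim21. At an unadjusted p under 0.05 there were 693 genes (3.81%) without the block, 475 higher and 218 lower, and 1115 (6.13%) with it, against 909.7 expected by chance. The genes described below are therefore given by their measured values, and the 22 were named after their values were seen.

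The number of genes past 1.5-fold depended on single arrays. It was 42 without RAW replicate 1 and 13 without the 4 arrays of replicate number 3, and over each single RAW or alone array and each replicate number left out, 10 to 22 of the 22 genes still passed. All 22 genes stayed above 0 in each of these fits, which reuse the arrays that chose the genes and so are no independent check.

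**Figure D1:**
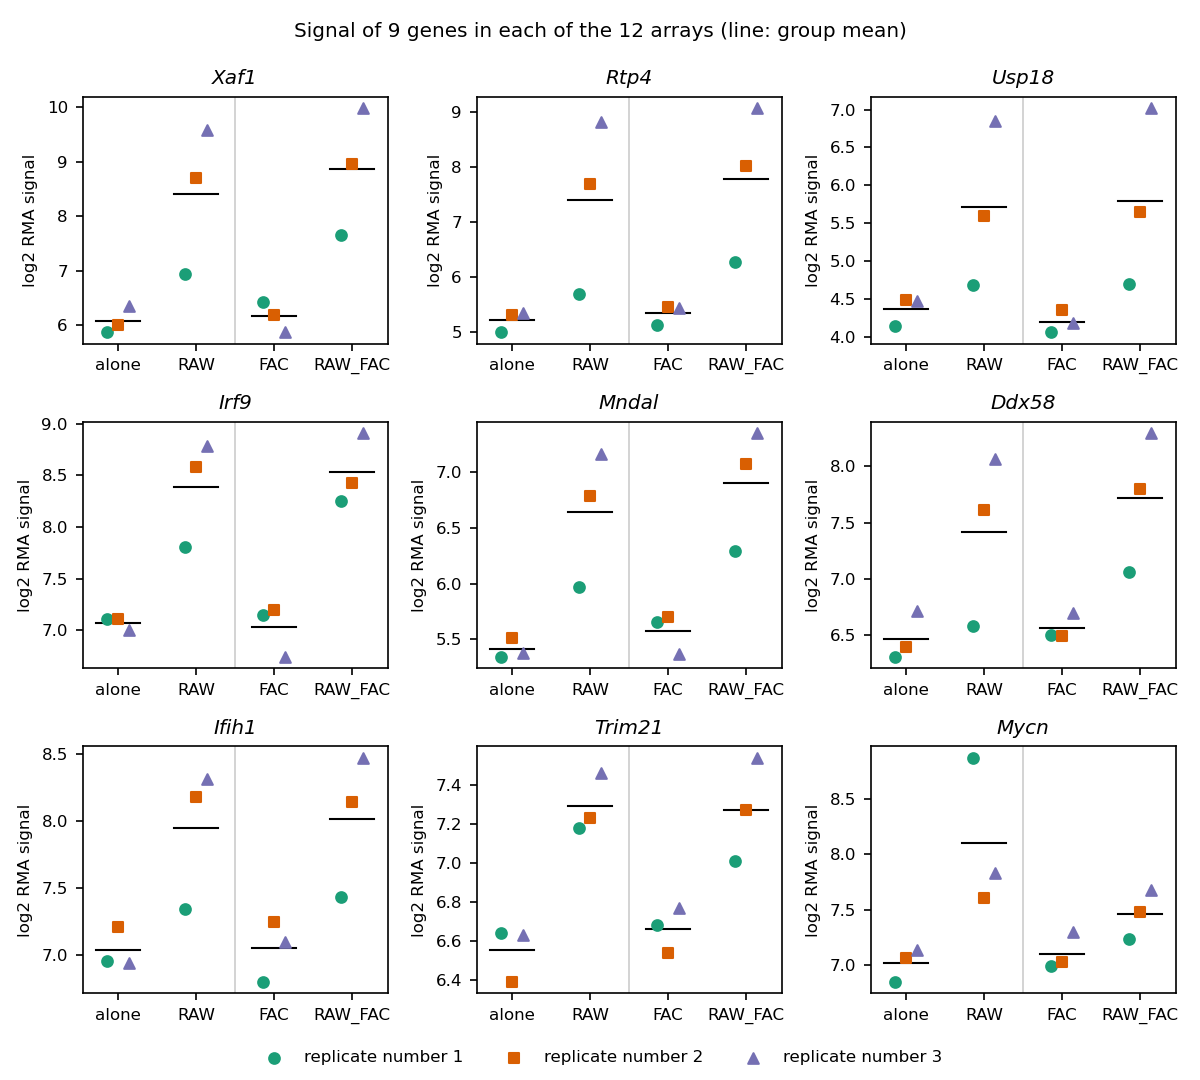
Log2 RMA signal (y axis of each panel) of 9 genes in each of the 12 arrays, by group (x axis), with points shaped and coloured by replicate number and a line at each group mean. In RAW the array numbered 1 is the lowest of the 3 for 8 of these genes and the highest for Mycn, and the same low position of number 1 is seen in RAW_FAC.

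Irf9 and Usp18 stood out among the genes of interferon signalling. Irf9 encodes the DNA-binding partner of the STAT proteins in the ISRE-binding complex. Its log2 signals were 7.11, 7.11 and 7.0 in alone and 7.81, 8.58 and 8.78 in RAW. All 3 RAW arrays lay above all 3 alone arrays, with number 1 the lowest of the RAW arrays. The difference was 1.31 ± 0.22 (SE, n = 3 arrays per group), with a limma adjusted p of 0.479 without the block and 0.585 with it. Usp18 encodes a protease that removes the ubiquitin-like protein ISG15 from its targets and dampens signalling at the type I receptor. It read 4.14, 4.49 and 4.47 in alone against 4.68, 5.60 and 6.85 in RAW. The groups did not overlap, and the 3 RAW arrays were spread over a wider range (SD 1.09) than the alone arrays (SD 0.20). The difference was 1.34 ± 0.52 without the block and had an SE of 0.37 with it (limma adjusted p = 1 and 0.651), and it was 0.77 without RAW replicate 3.

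Of the 15 genes measured in the signalling list, 0 passed the test, and 3 had all RAW arrays above all alone arrays: Usp18, Irf9 and Irf5. Over all genes, 938 (5.16%) had this pattern and 656 (3.61%) had the opposite one. The median difference of the list was 0.07, against 0.00 over all genes. Irf7, a factor that amplifies interferon production, differed by 0.30, Irf1 by 0.16 and Stat2 by 0.16. The kinase genes Jak1, Jak2 and Tyk2 differed by -0.16, 0.02 and -0.02. Socs1, a feedback inhibitor of these kinases, differed by 0.13.

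The ligands and receptors of the pathway showed small differences in the liver cell samples. Among 10 interferon ligand genes measured, 0 passed and 0 had groups that did not overlap, and their median difference was 0.02. Ifnb1, which encodes interferon beta, read 5.36, 5.22 and 5.46 in alone and 5.42, 5.42 and 5.27 in RAW, a difference of 0.03 ± 0.11. Ifng, which encodes interferon gamma, differed by -0.12 at a mean of 3.43 in alone. The RNA of the macrophages in the insert was not measured, so these values give no account of the ligand genes in the macrophages. Of 6 receptor genes, Ifnlr1, a subunit of the type III receptor, was the 1 gene with all RAW arrays above all alone arrays (0.15). Over all genes, 5.16% had this pattern and 3.61% the opposite one. Ifnar1, Ifnar2, Ifngr1 and Ifngr2 had mean signals in alone of 8.85, 10.05, 10.98 and 9.91 and differences between -0.09 and -0.01.

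Sensors of viral RNA included 2 of the 22 leading genes. Ddx58 encodes RIG-I and Ifih1 encodes MDA5, helicases that recognise double-stranded RNA in the cytosol. Ddx58 gave 6.30, 6.39 and 6.71 in alone and 6.58, 7.61 and 8.07 in RAW. The groups overlapped, because RAW replicate 1 lay below alone replicate 3. The difference was 0.95 ± 0.33 without the block and had an SE of 0.21 with it (limma adjusted p = 1 and 0.585), and its 3 probe sets gave 0.09 to 0.95. Ifih1 gave 6.96, 7.21 and 6.94 in alone and 7.34, 8.18 and 8.31 in RAW. Here the groups did not overlap, and the difference was 0.91 ± 0.26 (limma adjusted p = 1, and 0.585 with the block).

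Across the 15 sensor and adaptor genes measured, 0 passed, and 3 had all RAW arrays above all alone arrays: Ifih1, Adar and Tlr3 (5.16% of all genes did). Adar, an editor of double-stranded RNA, differed by 0.33, and Tlr3, the endosomal receptor for such RNA, by 0.26. Trim25, which activates RIG-I, and Ikbke, a kinase downstream of it, differed by 0.26 and 0.27. The adaptor genes Mavs, Sting1 and Myd88 and the kinase gene Tbk1 differed by -0.05 to 0.01, and Dhx58, a helicase related to Ddx58, by 0.05.

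Antiviral effectors held the genes with the highest differences. Xaf1 encodes a zinc finger protein that opposes inhibitors of apoptosis. It read 5.87, 6.0 and 6.36 in alone and 6.94, 8.70 and 9.58 in RAW. Each RAW array lay above each alone array, and the RAW arrays were widely spread (SD 1.34, against 0.25 in alone). The difference was 2.33 ± 0.59 (SE 0.48 with the block; limma adjusted p = 1 and 0.585). Rtp4 encodes a chaperone of membrane receptors that also restrains viruses. Its signals were 5.0, 5.32 and 5.35 in alone and 5.69, 7.69 and 8.81 in RAW. The groups were again separate, with RAW replicate 1 much closer to the alone arrays than the other RAW arrays were. The difference was 2.17 ± 0.69 (SE 0.48 with the block; limma adjusted p = 1 and 0.585). Xaf1 and Rtp4 each have another probe set, which differed by 0.12 in both genes; averaged over probe sets the differences were 1.22 and 1.15.

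Trim21 encodes a ubiquitin ligase that binds antibody-coated virus inside the cell. Its values were 6.64, 6.39 and 6.63 in alone and 7.18, 7.23 and 7.46 in RAW. All RAW arrays were above all alone arrays, and the SD was 0.14 in alone and 0.15 in RAW. The difference was 0.74 ± 0.12, or ± 0.09 with the block, and the other probe set of Trim21 gave 0.49. Its limma adjusted p was 0.479 without the block, 0.193 with it, 0.0157 with a variance trend and robust moderation added to the block, and 0.0198 with the block and without the 4 arrays of number 1. No other alternative fit brought it under 0.05. It was 0.46 with trend and robust moderation without the block. With the block it was 0.559 in the RAW and alone arrays only and 0.883 without the arrays of number 3.

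Samd9l, an interferon-inducible inhibitor of translation, read 8.11, 8.16 and 8.07 in alone and 8.33, 8.96 and 9.20 in RAW. Oas1a, which makes the 2-5A messenger that activates RNase L, read 6.96, 7.12 and 7.35 in alone and 7.08, 7.98 and 8.39 in RAW. Only the first of these 2 genes had groups that did not overlap, and their differences were 0.71 ± 0.23 and 0.68 ± 0.30. Ifit1, which binds viral RNA caps, read 4.41, 4.48 and 4.24 in alone and 4.56, 4.75 and 5.69 in RAW. Its difference of 0.62 ± 0.39 came largely from RAW replicate 3 and was 0.27 without that array.

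Over the whole effector list, 41 genes were measured, 0 passed, 36 differed upwards and 9 had all RAW arrays above all alone arrays, where 5.16% of all genes did, with a median difference of 0.12. Over all 18194 genes, 9054 differed upwards. Bst2 (tetherin), Ifi35 and Eif2ak2 (the kinase PKR) differed by 0.42, 0.39 and 0.31. Several genes commonly used as interferon markers were not among the leading ones. Mx1, a GTPase that blocks influenza virus, differed by -0.03 at a mean of 3.97, and Rsad2 (viperin) by 0.01 at 5.98. Ifit3 differed by 0.10 at 4.92 and Ifit2 by 0.08 at 9.05.

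The 7 interferon lists, from receptors to GTPases, together held 102 measured genes. The 49 with an alone mean at or above that of the median gene (6.81) had a median difference of 0.10 and included 5 of the genes at least 1.5-fold higher. The 53 below it had a median of 0.11 and included 10. Over all genes, the medians above and below this level were -0.01 and 0.02, and 9 and 13 of 9097 genes each were at least 1.5-fold higher.

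**Figure D2:**
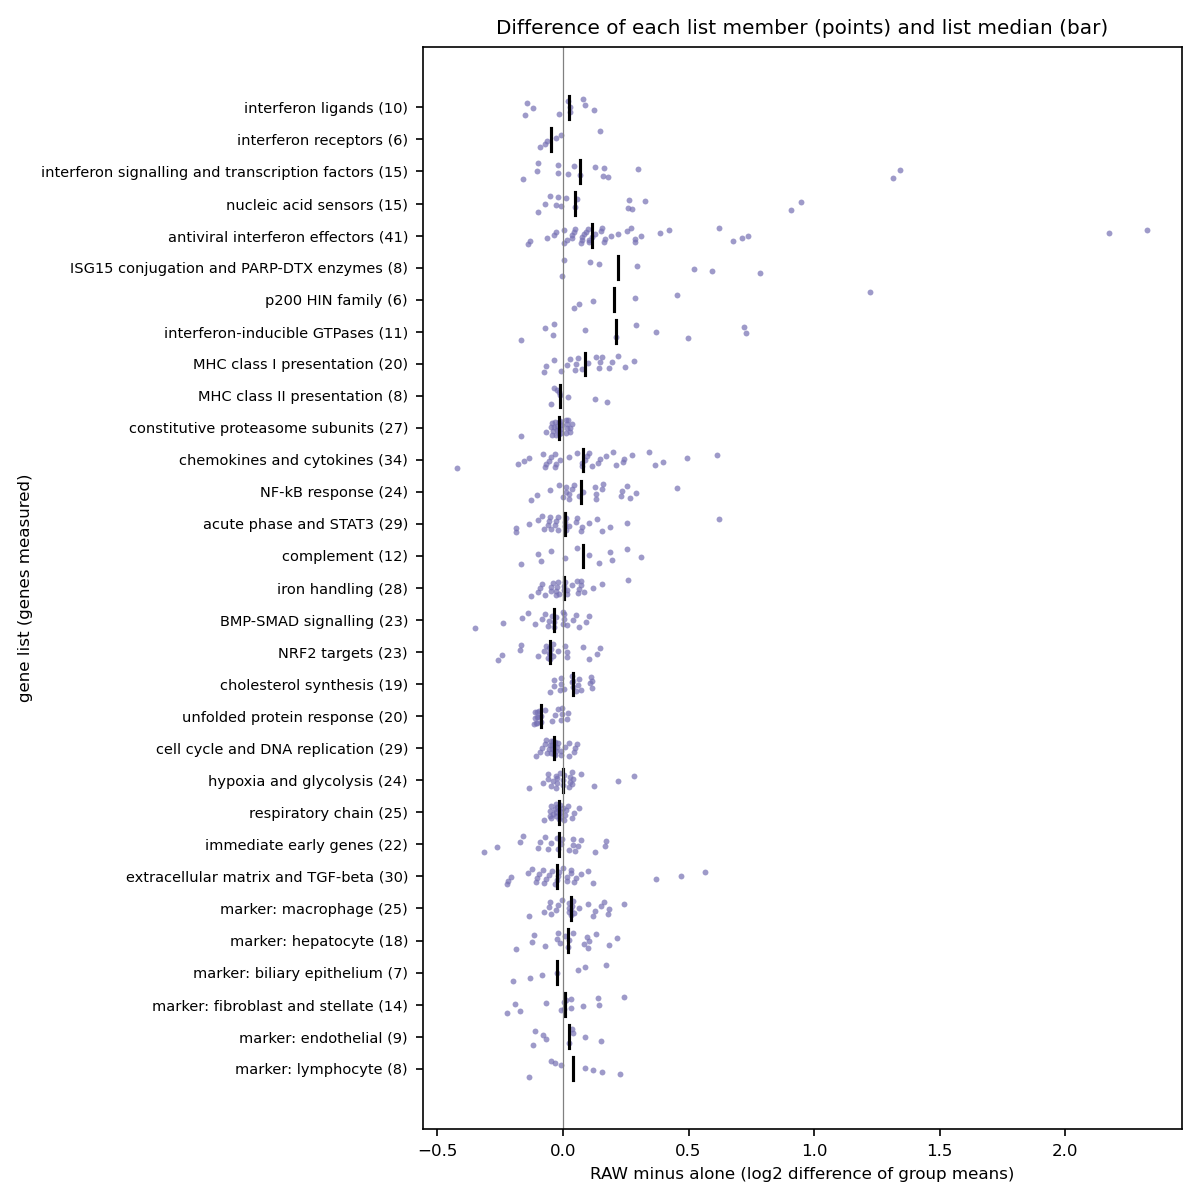
RAW minus alone difference in log2 units (x axis) of every measured member (points) of 31 gene lists (y axis, number measured in brackets), with a bar at each list median. The points far to the right belong to the interferon lists, while lists such as the proteasome, cell cycle and respiratory chain stay within 0.2 of 0.

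Families that interferon controls at gene clusters were among the higher ones. Mndal belongs to the p200 family of nuclear proteins that bind DNA, together with Ifi202b, Ifi204 and Aim2. It read 5.34, 5.51 and 5.38 in alone and 5.97, 6.78 and 7.16 in RAW. The groups were separate, the difference was 1.22 ± 0.28 (limma adjusted p = 1, and 0.585 with the block), and its 2 probe sets gave 1.22 and 1.39. Ifi202b, which was not in the list, differed by 0.90 ± 0.38, with RAW replicate 1 at 7.89 inside the alone range of 7.83 to 8.30. All 6 measured members of the p200 list were above 0, as were 9054 of all 18194 genes. They ran from 0.04 for Aim2, the sensor of cytosolic DNA, to 1.22 for Mndal, and 0 passed the test.

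Among interferon-inducible GTPases, Igtp read 6.43, 6.50 and 6.56 in alone and 6.66, 7.32 and 7.70 in RAW. Irgm2 read 3.90, 3.68 and 4.01 in alone and 4.01, 4.57 and 5.18 in RAW. The groups of both genes were separate, although the lowest RAW and the highest alone array of Irgm2 both rounded to 4.01. Their differences were 0.73 ± 0.23 and 0.72 ± 0.30, and Irgm1, of the same family, differed by 0.50 ± 0.16. Of 11 GTPases measured, 5 had all RAW arrays above and 1, Iigp1, all RAW arrays below the alone arrays (5.16% and 3.61% of all genes), and 0 passed. The guanylate-binding protein genes Gbp2, Gbp3 and Gbp7 differed by 0.09, -0.04 and -0.07.

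The list of ISG15 conjugation and PARP-DTX enzymes had a median difference of 0.22, and 4 of its 8 measured genes had all RAW arrays above all alone arrays, as 5.16% of all genes did. Parp14, an ADP-ribosyl transferase, differed by 0.79 ± 0.32, while its other probe set gave -0.03. Parp12 differed by 0.59 ± 0.20, Parp9 by 0.52 and its partner ubiquitin ligase Dtx3l by 0.30. Ube2l6 and Uba7, the enzymes that load ISG15, differed by -0.01 and 0.00. Helz2, a nuclear helicase, and Trim12c, a TRIM family member, were in no list, and they differed by 0.79 ± 0.25 and 0.82 ± 0.31. The other probe set of Trim12c gave 0.08.

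Promoter sequences are shown for members of these families because the genes lay high together and the ISRE is a known element of the pathway. RefSeq promoters on the GRCm38.p6 build, from 250 bases before to 50 after the gene start, were found for 17 of the 22 genes. The ISRE core searched was GAAA, any 2 bases and GAAA, and the GAS core was TTC, any 3 bases and GAA. Both strands were searched, and matches may overlap each other. An ISRE core was found for 10 of the 17 genes (58.8%), against 524 of the 14453 tested genes whose promoters were searched (3.63%). A GAS core was found in 4 of 17 (23.5%), against 1239 of 14453 (8.57%). The matches describe letters in these windows and show no binding. Below, upstream stretches are written in the direction of the gene with the core in capitals, so a core on the opposite strand appears as TTTC, 2 bases and TTTC. They come from chr1:173880194-173880243 (minus strand, Mndal), chr7:104353350-104353398 (minus, Trim12c), chr11:58199502-58199551 (plus, Igtp), chr11:58214893-58214942 (plus, Irgm2), chr5:120907526-120907565 (minus, Oas1a) and chr19:34640765-34640814 (plus, Ifit1).
Mndal: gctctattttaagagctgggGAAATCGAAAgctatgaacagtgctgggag
Trim12c: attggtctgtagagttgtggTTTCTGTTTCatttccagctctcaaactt
Igtp: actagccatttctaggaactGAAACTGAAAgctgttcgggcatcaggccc
Irgm2: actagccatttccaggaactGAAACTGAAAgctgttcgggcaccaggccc
Oas1a: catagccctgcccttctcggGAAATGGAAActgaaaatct
Ifit1: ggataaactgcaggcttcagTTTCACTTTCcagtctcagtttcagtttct

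The cores shown for Mndal, Trim12c, Igtp and Oas1a began 36, 29, 34 and 20 bases before the gene start, that of Irgm2 64 and that of Ifit1 104. Mndal had 2 promoter entries, and the other one held a core on the opposite strand that began 54 bases before its start. The neighbouring paralogs Igtp and Irgm2 share the same core, and both promoters also held a GAS core. Oas1a, Ifit1 and Trim21 each had 2 ISRE cores. Ddx58, Ifih1, Trim21 and Saa3 made up the rest of the 10. No core of this spelling lay in the windows of Xaf1, Irf9, Mycn, Helz2, Samd9l, Parp12 or Ifi202b, and only the last of these held a GAS core.

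Antigen presentation genes showed smaller differences than the leading genes. Of 20 MHC class I genes measured, 0 passed, and 16 were above 0 (9054 of all 18194 genes were), with a list median of 0.09. All RAW arrays lay above all alone arrays for 1 gene, H2-M3 (0.22), and below them for 1, Psmb9, beside 5.16% and 3.61% of all genes. H2-D1 and H2-K1, classical class I heavy chains, differed by 0.28 and 0.18, their light chain B2m by 0.20 and the peptide transporter gene Tap1 by 0.13. The immunoproteasome genes Psmb8 and Psmb9, which are classical targets of type II interferon, differed by 0.05 and -0.07. For MHC class II, 0 of 8 genes passed, and the median was -0.01. Cd74, the invariant chain, read 6.47, 6.59 and 6.49 in alone and 6.40, 6.48 and 6.65 in RAW, and Ciita, the class II master regulator, differed by 0.13 ± 0.10. The 27 constitutive proteasome subunits had a median of -0.02.

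Chemokines and the NF-kB response gave a mixed picture. Ccl2, a monocyte attractant, read 10.51, 11.57 and 11.47 in alone and 10.66, 12.55 and 12.18 in RAW. The groups overlapped, since the array numbered 1 was low in both. The difference was 0.61 ± 0.51 without the block and had an SE of 0.15 with it (limma adjusted p = 1 and 0.607), and the same-number differences were 0.15, 0.98 and 0.71. It was 0.24 without RAW replicate 2, 1.18 without RAW replicate 1 and 0.28 without alone replicate 1 in the fit without the block.

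Ccl7, another monocyte attractant, differed by 0.49, Cxcl1, a neutrophil attractant, by 0.24 and Ccl20 by 0.34. Cxcl10, the best-known chemokine of the interferon response, differed by -0.03 and Ccl5 by 0.20. Cxcl11 had separate groups (4.76, 4.85 and 4.83 in alone, 5.27, 5.08 and 5.19 in RAW) and a difference of 0.37 ± 0.08, while its other probe set gave -0.02 and RAW_FAC minus FAC gave -0.04. Of the 34 genes of chemokines and cytokines, 0 passed, 1 had all RAW arrays above and 1 all RAW arrays below, where 5.16% and 3.61% of all genes did. The latter was Il33, an alarmin of epithelial cells, with a difference of -0.42 ± 0.12.

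Of 24 NF-kB response genes, 0 passed, 20 were above 0 (9054 of all 18194 genes were) and the median was 0.07. Nfkbia, the inhibitor that NF-kB itself induces, differed by 0.26 ± 0.14 and was above 0 in 5 of 5 probe sets, and Vcam1, an adhesion molecule, differed by 0.46. In the acute phase list (29 genes, median 0.01), Saa3, a serum amyloid A gene, read 5.84, 6.14 and 6.59 in alone and 6.41, 6.78 and 7.24 in RAW. The groups overlapped, while the 3 same-number differences were close, at 0.57, 0.64 and 0.65. Its difference of 0.62 had an SE of 0.32 without the block and 0.13 with it (limma adjusted p = 1 and 0.585). Lcn2, Il6 and Socs3 differed by 0.07, 0.06 and -0.05.

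Mycn and Rspo3 were leading genes outside the interferon lists. Mycn, a MYC family transcription factor, read 6.85, 7.07 and 7.14 in alone and 8.87, 7.61 and 7.83 in RAW. The groups were separate, and the array that was lowest for most leading genes, RAW replicate 1, was the highest here. The difference was 1.08 ± 0.25, or 0.70 without that array, and the 3 probe sets gave 0.12 to 1.08. Rspo3, a secreted enhancer of WNT signalling, differed by 0.67 ± 0.29 (0.32 without RAW replicate 2 and 1.05 without RAW replicate 1), and its groups overlapped.

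Genes at the lower end stayed under 1.5-fold. The largest differences below 0 were those of Tcstv1 (-0.58), Slurp1 (-0.56), Dmkn (-0.52), Kcne2 (-0.51), Acaa1b (-0.48), Cyp2s1 (-0.47), Sptssb (-0.45), Fgf1 (-0.44) and Maf (-0.43). The other probe set of Sptssb gave 0.03. The 3 probe sets of Fgf1 gave -0.44 to -0.08, and the 6 of Maf gave -0.43 to -0.02. Slurp1, a secreted peptide of epithelia, read 7.40, 7.68 and 8.02 in alone and 7.12, 6.97 and 7.32 in RAW, and Fgf1, a growth factor, read 7.84, 7.78 and 7.96 in alone and 7.58, 7.22 and 7.46 in RAW. Both had separate groups, with limma adjusted p = 1 without the block and 0.585 with it. In arrays with iron these genes differed by -0.32 and -0.18. By unadjusted p the 10 leading genes also included H60c, a ligand of the activating receptor NKG2D, at -0.35 ± 0.07, and Spink1, Gm11992, Pnldc1 and 0610040F04Rik at 0.29 to 0.37. In RAW_FAC minus FAC these 5 genes differed by 0.05 for H60c, 0.15 for Spink1, -0.03 for Gm11992, -0.04 for Pnldc1 and -0.05 for 0610040F04Rik.

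Iron genes showed little difference when macrophages were added without iron. Of 28 iron handling genes measured, 0 passed, and the median was 0.01. Tfrc, the transferrin receptor gene, read 13.28, 13.29 and 13.11 in alone and 13.40, 13.16 and 13.07 in RAW, a difference of -0.01 ± 0.21. Hamp, which encodes the iron hormone hepcidin, differed by 0.02 ± 0.07, the ferritin heavy chain gene Fth1 by 0.02 ± 0.07 and the exporter gene Slc40a1 by 0.07 ± 0.09. In BMP-SMAD signalling, which governs hepcidin, 0 of 23 genes passed and the median was -0.04. The lowest were the targets Id2 and Atoh8 at -0.35 and -0.24.

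Whether the leading genes were also higher in arrays that did not choose them was examined in RAW_FAC and FAC, which repeat the comparison with iron in both groups. All 22 genes were above 0 there, and 19 of them were at least 1.5-fold higher, a level that 28 of all genes (0.154%) reached. All 3 RAW_FAC arrays lay above all 3 FAC arrays for 14 of the 22, against 660 of all genes (3.63%). The median RAW_FAC minus FAC difference of the 22 was 0.88, against 0.01 over all genes. For example, Xaf1 differed by 2.70 ± 0.59, Rtp4 by 2.44 ± 0.69, Usp18 by 1.58, Irf9 by 1.5 and Mndal by 1.33. Mycn, Rspo3 and Saa3 fell short of 1.5-fold, at 0.36, 0.47 and 0.44.

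In limma with all arrays 0 genes passed in RAW_FAC minus FAC, with 574 at an unadjusted p under 0.05 without the block and 1020 with it. Across genes, the 2 sets of differences had a Pearson correlation of 0.27 over all 18194 genes; the groups share no array but share replicate numbers. The difference was larger with iron for 17 of the 22 genes, but the interaction of co-culture with iron was called for 0 of 18194 genes in limma, with or without the block (540 and 790 at an unadjusted p under 0.05).

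**Figure D3:**
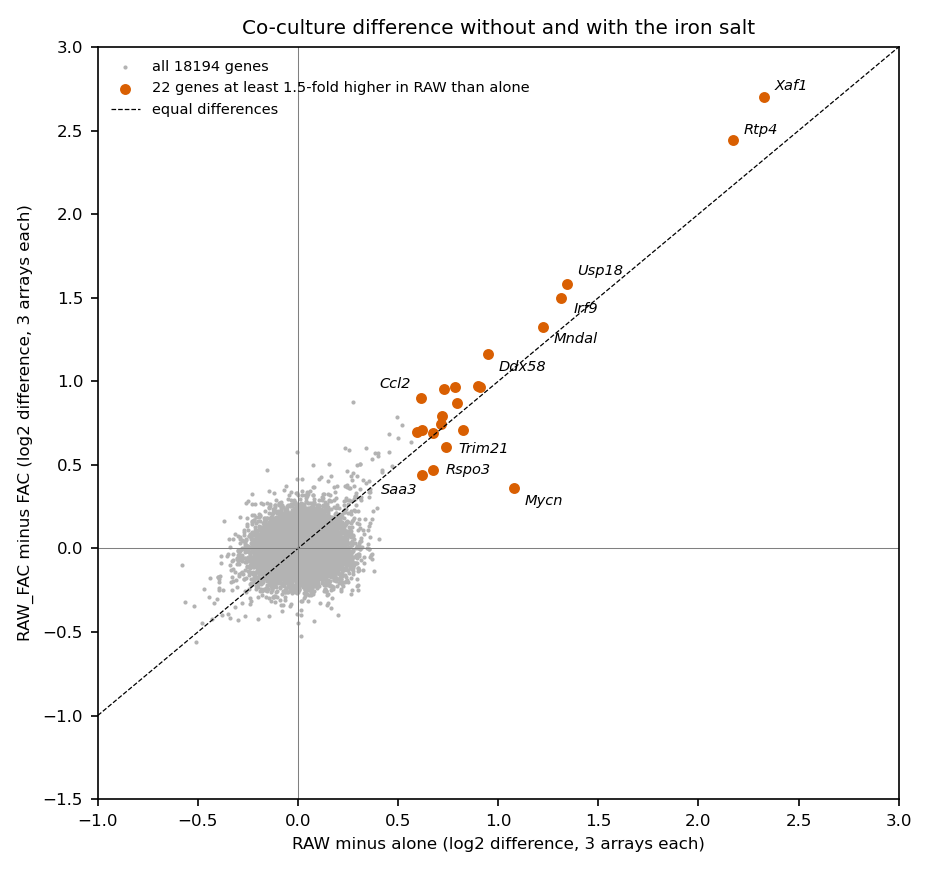
RAW_FAC minus FAC difference (y axis, log2) against RAW minus alone difference (x axis, log2) for all 18194 genes, with the 22 genes at least 1.5-fold higher in RAW in colour and a dashed line where both are equal. The 22 genes all lie above 0 on the y axis, 17 of them above the dashed line, and Mycn lies farthest below it.

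Averaging the co-culture difference over both iron conditions, a contrast added after the data were seen, used all 12 arrays. In limma without the block it called 2 genes higher (0.0110%), Irf9 (1.41 ± 0.16, adjusted p = 0.0125) and Trim21 (0.67 ± 0.09, adjusted p = 0.0349). With the block it called 10 genes higher (0.0550%) and 0 lower (0%). Interferon genes among them were Irf9, Trim21, Ifih1 (0.93 ± 0.12), Mndal (1.27 ± 0.16), Xaf1 (2.52 ± 0.34), Ddx58 (1.06 ± 0.15) and Trim14 (0.48 ± 0.07), an adaptor in RNA sensing. The other 3 were the chemokine genes Cxcl1 (0.35 ± 0.04), Ccl7 (0.64 ± 0.08) and Ccl2 (0.76 ± 0.11). Their adjusted p ran from 0.0160 to 0.0493. Each of the 10 was above 0 in 6 of 6 same-number pairs, but these pairs also chose the genes, so this is no further support. The count of higher genes became 0 when alone replicate 2, alone replicate 3, RAW replicate 2, RAW replicate 3, FAC replicate 2, RAW_FAC replicate 2 or RAW_FAC replicate 3 was left out, and 3 without FAC replicate 3. It was 21 without alone replicate 1, 24 without RAW replicate 1, 15 without FAC replicate 1 and 22 without RAW_FAC replicate 1. Without the 4 arrays of number 1, 44 genes were called higher and 9 lower, and without those of number 2 or number 3, 0 were called in either direction. With single arrays left out, 3 genes were called lower when it was alone replicate 1, 1 when it was RAW replicate 1, 4 when it was RAW_FAC replicate 1 and 0 for each of the others.

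For the 22 leading genes, the size of the co-culture difference varied with the replicate number. Among the 22 genes the median same-number difference of RAW minus alone was 0.26 in number 1, 0.93 in number 2 and 1.26 in number 3. Number 1 gave the smallest of the 3 differences for 21 of the 22 genes, and for 37.5% of all genes. Over all genes the medians were -0.01, 0.02 and -0.01. In the arrays with iron the medians of the 22 were 0.50, 0.82 and 1.37, with number 1 the smallest for 21 of 22. What the numbers stand for is not given in the sources used here.

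A test of whether the co-culture difference differs between numbers, over both iron conditions and added after the data were seen, called 2 genes (0.0110%), Rtp4 (limma adjusted p = 0.000508) and Usp18 (limma adjusted p = 0.00074). Their same-number differences were 0.69, 2.37 and 3.46 for Rtp4 and 0.54, 1.11 and 2.38 for Usp18 without iron. With iron they were 1.14, 2.55 and 3.63 for Rtp4 and 0.64, 1.29 and 2.82 for Usp18. Both genes stayed past the threshold with each of the 12 arrays left out in turn. Without the 4 arrays of number 1 and with the block, limma called Ddx58 (1.29 ± 0.09) and Trim21 (0.83 ± 0.06) in RAW minus alone, each with an adjusted p of 0.0198, and without RAW replicate 1 and without the block it called Irf9 (1.61 ± 0.18, adjusted p = 0.0179). In RAW_FAC minus FAC, the fit without number 1 and with the block called 9 genes higher and 0 lower in limma: Xaf1 (3.43 ± 0.29), Rtp4 (3.09 ± 0.30), Mndal (1.67), Ddx58 (1.46), Cxcl3 (1.42), Parp14 (1.36), Trim21 (0.75), Nfkbie (0.74) and Saa3 (0.67), with adjusted p from 0.0105 to 0.0456. Leaving out number 1 removes the smallest same-number difference of 21 of the 22 genes, so these calls are no independent support. With the block and without number 2 or without number 3, limma called 0 genes in either comparison.

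**Figure D4:**
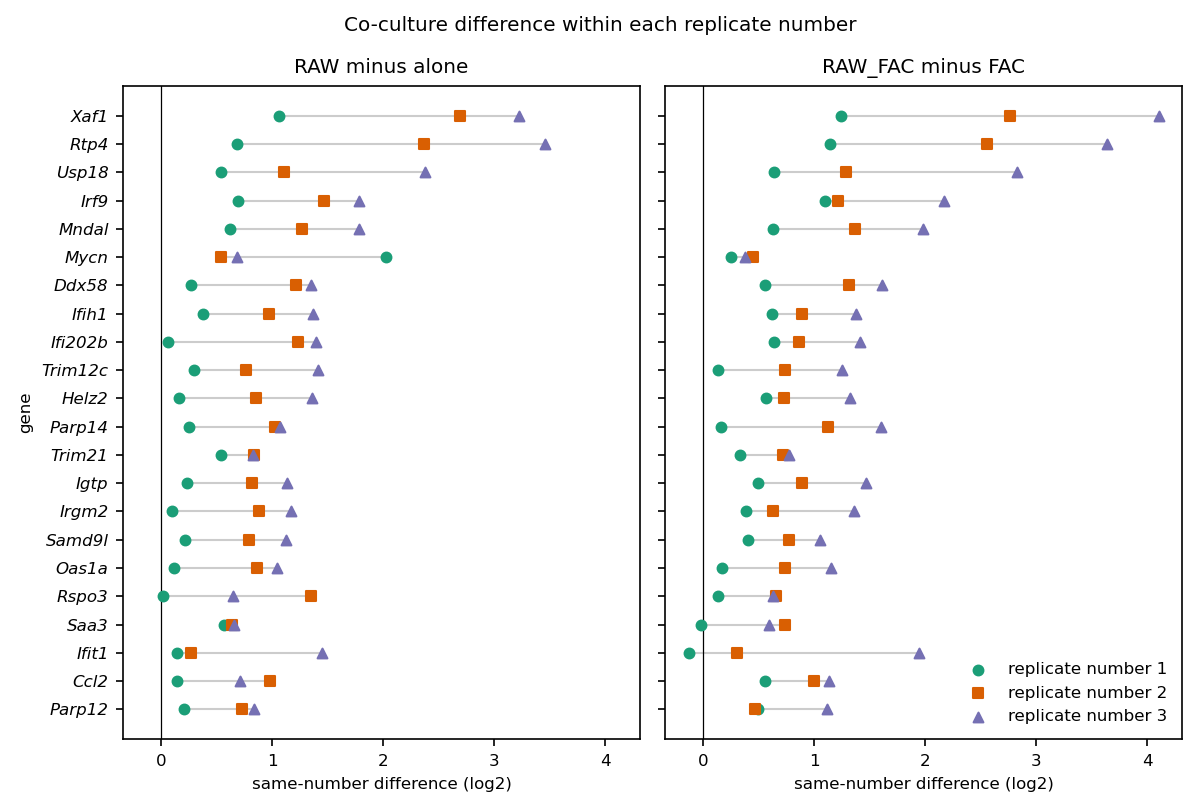
Same-number differences in log2 units (x axis) of the 22 leading genes (y axis), RAW minus alone on the left and RAW_FAC minus FAC on the right, with a line joining the 3 replicate numbers of a gene. Number 1 lies closest to 0 for 21 of 22 genes on the left, Mycn being the exception.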

How the data were processed

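RNA of 12 samples was hybridised to Affymetrix mouse arrays. The authors deposited log2 values made by RMA, a method that brings arrays to 1 scale and sums the probes of a probe set, with affy, per the submitters' processing notes. Versions of both are unstated, and the values were used as deposited. Of 45101 probe sets, 34958 name 1 gene, 932 several and 9211 none; the last 2 kinds were left out, and each of the 18194 genes was represented by its brightest probe set, judged by the mean of the 12 arrays. Some genes are not analysed here.

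All 12 arrays entered 1 linear model of 4 group means in limma 3.58.1 (R 4.3.3; two-sided, Benjamini-Hochberg adjusted p under 0.05), without and with replicate number as an additive block. Same-number arrays deviated together: residual correlations of the 18 same-number pairs were 0.26 to 0.53, those of the 36 other pairs -0.35 to -0.01, and RAW and alone correlated at 0.51, 0.39 and 0.47, so the numbers were taken to pair the arrays. The pairing comes from the titles and these residuals. Residuals sum to 0 over the 3 arrays of a group, so the negative correlations of the other pairs are no separate evidence. The script was tested on simulated data. Python 3.11.15, numpy 2.4.6, pandas 2.3.3 and matplotlib 3.10.9 were used for tables and plots.

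The comparison, the 31 gene lists (590 of 656 entries measured) and the rules were chosen with earlier results of these data known. Named genes are those past the threshold, the 10 with the smallest p where fewer than 5 passed, and 40 fixed genes; the 22 genes at least 1.5-fold higher, the 10 lowest, and those called in the average contrast were added after their values were seen. Alternatives were the block (fixed or random), array weights, the 6 arrays alone, a filter on low means, centring, quantile normalization, other probe set choices, trend and robust moderation, and each array or number left out. The number of arrays limits the precision.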

Additional observations from a re-analysis of the deposited data

Results flagged for a closer look

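Among the 932 probe sets that name several genes, which the comparison did not use, 6 were at least 1.5-fold higher in RAW than in alone and 0 were lower. Of the 18194 genes tested, 0.121% were at least 1.5-fold higher and 0% lower. In 3 of the 6, which were picked for a high difference, all RAW arrays lay above all alone arrays. Of all genes tested, 5.16% had this pattern. The largest difference was 1.98. Among 9160 probe sets with no gene name, which leave out 51 array control probe sets, the largest difference was 0.53.

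The co-culture difference of Rtp4 differed between replicate numbers (limma moderated F test over both iron conditions, adjusted p = 0.000508), with the smallest difference in number 1 and the largest in number 3 both without and with iron. The same test gave Usp18 an adjusted p of 0.00074, with the same order of numbers. These were the 2 genes called of 18194, and 675 had an unadjusted p under 0.05 in this F test, fewer than the 909.7 expected by chance.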

How the results depend on the processing

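The count of 0 genes higher in RAW minus alone stayed 0 in limma with the replicate block and became 1 with trend and robust moderation and the block (Trim21), 2 without replicate 1 with the block (Ddx58 and Trim21), and 0 to 1 with single arrays or numbers left out without the block, the 1 being Irf9 without RAW replicate 1. The count of lower genes in RAW minus alone stayed 0 in each alternative run. The interaction count was 0 in each alternative with all 4 groups, and that of RAW_FAC minus FAC was 0 with the block and all arrays, 1 with the block among genes above the median mean, 2 with trend and robust moderation and the block, 1 without RAW replicate 1, 3 without RAW_FAC replicate 1 with the block and 9 without replicate 1 with the block, all higher. Of 2320 alternative values for 75 named genes, 2314 stayed on their side of the threshold and were not counted as turned. Another 4 passed the threshold (above), and 2 were counted as turned. A change of sign was counted only where the main difference exceeded its SE. Sign changes of differences smaller than their SE are therefore among the 2314. The 2 were values of Ciita, at -0.035 without replicate 1, with and without the block, against 0.214 without replicate 3. Genes at least 1.5-fold higher (22) were 13 among genes above the median mean, with or without the block, where fewer genes were tested, 13 without replicate 3 with or without the block, and 13 to 42 over all fits with an array or number left out, 42 being without RAW replicate 1. Genes at least 1.5-fold lower (0) were 1 after centring, 1 after quantile normalization, and with the block 5 without alone replicate 1, 1 without alone replicate 2, 7 without RAW replicate 1, 1 without RAW replicate 3 and 9 without replicate 1. Without the block they were 0 to 13, the latter without alone replicate 1. Leaving out 1 array without the block also unbalances the replicate numbers between RAW and alone. The cause of these shifts was not tested. Averaging all probe sets of a gene gave 19 genes past 1.5-fold, and moved Xaf1 to 1.22, Rtp4 to 1.15, Ddx58 to 0.62, Mycn to 0.51, Trim12c to 0.45 and Parp14 to 0.38.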
